A study of Homo sapiens with 4 samples.

Results

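The proteasome genes described here are the protein-coding rows of the deposited table whose symbols start with PSMA, PSMB, PSMC, PSMD, PSME, PSMF or PSMG followed by a digit. They number 50, out of 60676 genes in the table, of which 19968 are protein-coding. Their transcripts were measured by RNA-seq in 2 libraries of Synph-293 cells and 2 libraries of HEK293 cells. HEK293 is a human embryonic kidney line, labelled wild type here. Synph-293 cells were derived from it and overexpress synphilin-1, the product of SNCAIP, a cytoplasmic protein that binds alpha-synuclein and gathers into inclusions. Both kinds of cell were untreated and grown in the same serum-containing medium, and the labels name poly(A) RNA. The vector and promoter behind the overexpression are not given in the labels, nor is it stated whether Synph-293 is a single clone or a pool. They also do not say whether the replicates of a group were separate cultures, so p-values measure only the spread between these libraries, which may be technical.

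The proteasome is the protease that degrades most ubiquitin-tagged proteins in the cytosol and nucleus. Its 20S core is a barrel of stacked rings, with alpha subunits that gate the entrance and beta subunits that include the cutting sites. The 19S regulatory particle caps the barrel and has a base of ATPases that unfold the substrate and a lid that removes ubiquitin. Other activators can bind the core in place of the 19S particle, and dedicated chaperones assemble both particles. Subunit genes are often induced together when the proteasome is inhibited, chiefly through the transcription factor NFE2L1, and interferon replaces the cutting subunits with inducible versions. Synphilin-1 has been reported to bind the base ATPase that PSMC4 encodes, also called S6.

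The libraries held 16471847 and 16634633 counts in Synph-293 cells and 16998732 and 13284417 in HEK293 cells. SNCAIP reached 1366 and 1524 CPM in Synph-293 cells, against 1.01 and 1.198 CPM in HEK293 cells, as the labels state. CPM is a count divided by the size of its library, scaled by TMM, the normalisation of edgeR, and multiplied up to a common depth. Of 6 markers of HEK293 cells, VIM, KRT8 and KRT18 were between 210 and 1546 CPM and CDH2 between 74.5 and 94.0 CPM over the 4 libraries. PAX2 was at 5.25 and 4.97 CPM in Synph-293 cells and 0.771 and 0.599 CPM in HEK293 cells. NEFM was at 0.477 and 0.859 CPM in Synph-293 cells and 0.415 and 0.300 CPM in HEK293 cells. Mitochondrial genes took 7.28% and 10.9% of the counts in Synph-293 cells and 10.6% and 7.76% in HEK293 cells.

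Of the 50 proteasome genes, 45 passed the filter on low counts and were tested by edgeR's quasi-likelihood test, with p adjusted by the Benjamini-Hochberg method over 16421 genes and a threshold of 0.05. Only 3 were called. PSMD13, a subunit of the 19S lid, was higher in Synph-293 cells, and PSMA2, an alpha subunit of the 20S core, and PSMG3, a chaperone of core assembly, were lower. The 1 gene called higher stands against 10.0% of all tested genes called higher, the 2 called lower against 6.58% called lower, and the 3 together against 16.6% called in either direction. By DESeq2 the counts were also 1 higher and 2 lower, against 6.33% and 4.75% of the genes it tested. By limma on log2(TPM + 0.1), where TPM is a level scaled for transcript length and library size, they were 0 higher and 1 lower, against 6.61% and 2.89%. At an unadjusted p under 0.05 edgeR's test gave 5 higher and 4 lower, against 17.2% and 14.6% of all tested genes. These shares also stand behind the counts by role and by list that follow. In bulk RNA, a difference in the number of cells that express a gene and one in the RNA per cell cannot be told apart.

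Single libraries decided these counts. Without Synph-293 replicate 1 there were 0 genes called higher and 1 lower, and without Synph-293 replicate 2 there were 1 and 0. Without HEK293 replicate 1 there were 1 and 5, the added genes called lower being PSMA5, PSMB5 and PSMB6. Without HEK293 replicate 2 there were 8 and 2, with PSMB7, PSMC3, PSMC4, PSMC5, PSMC3IP, PSMD1 and PSMD8 added to PSMD13 among those called higher. The share of all tested genes called moved as well, to between 8.98% and 24.5% in these 4 fits.

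Across the 45 tested genes the log2 fold change, Synph-293 over HEK293, had a median of -0.06, against -0.01 over all genes tested. Leaving out 1 library turned its sign, as it was 0.02 without Synph-293 replicate 2 and 0.08 without HEK293 replicate 2, while it was -0.14 without Synph-293 replicate 1 and -0.20 without HEK293 replicate 1. With all 4 libraries it was positive for 18 genes and negative for 27 (60.0%, against 51.3% of all tested genes). For 40 of the 45 it lay within 0.5 of 0 (88.9%), against 70.9% of all tested genes and 78.7% of the tested genes at or above 3.70 CPM, the lowest mean of a tested proteasome gene. Both Synph-293 libraries lay above both HEK293 libraries for 8 genes (17.8%, against 30.5% of all tested genes) and below both for 14 genes (31.1%, against 29.1%). The 2 groups overlapped for the other 23. The spread between replicates was as large as these shifts. The median log2 ratio of replicate 1 to replicate 2 over the 45 genes was 0.16 in Synph-293 cells and -0.29 in HEK293 cells, against 0.00 and 0.01 over all tested genes.

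**Figure D1:**
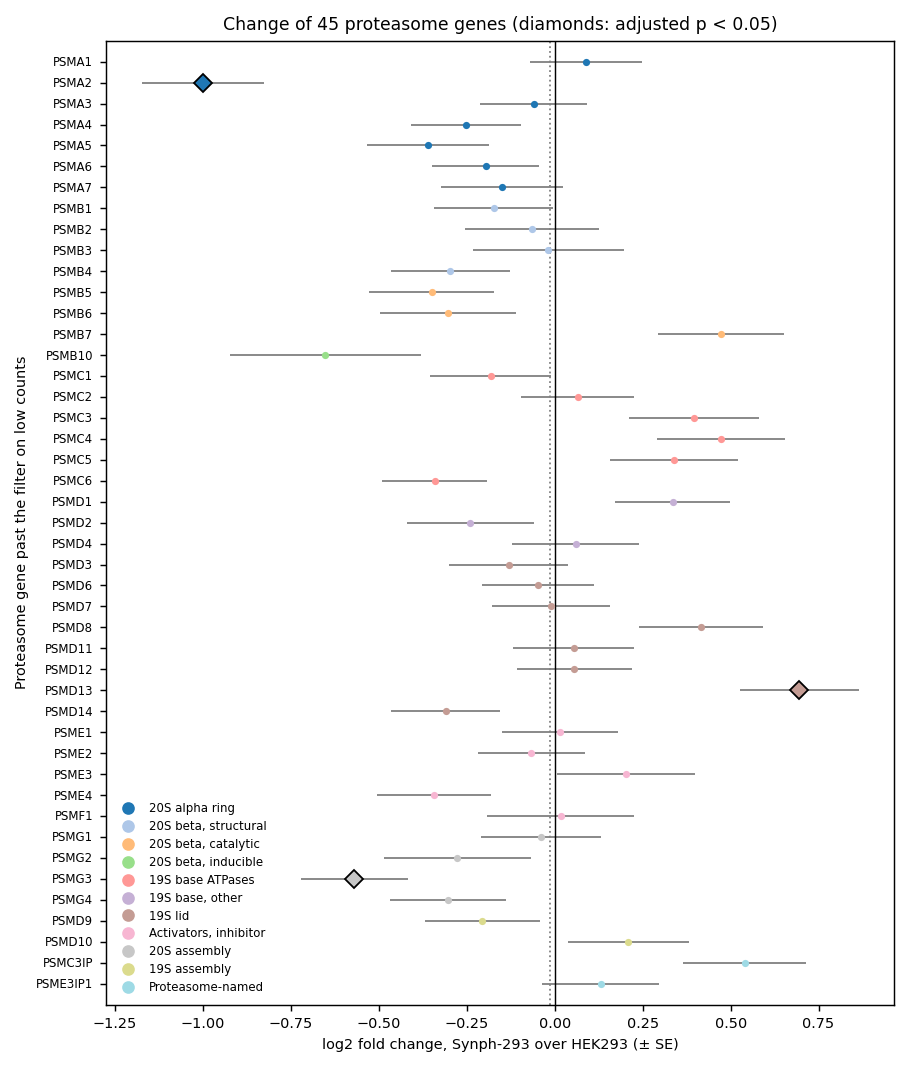
Log2 fold change of each tested proteasome gene, Synph-293 over HEK293, from edgeR, with bars of 1 SE and colours for the role in the complex. Most points lie between -0.5 and 0.5, and the diamonds mark PSMA2 at -1.001, PSMG3 at -0.57 and PSMD13 at 0.69.

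PSMA2 encodes an alpha-ring subunit of the core (ENSG00000106588, chromosome 7, 42916861 to 42932185, minus strand, GRCh38). It was at 70.5 and 54.2 CPM in Synph-293 cells, against 131 and 119 CPM in HEK293 cells. The groups did not overlap, and the lower of the HEK293 libraries was above the higher of the Synph-293 libraries. The log2 fold change was -1.001 ± 0.174 (SE), a 2.00-fold lower level, with an edgeR adjusted p of 0.00274. It was the largest change of any tested proteasome gene in either direction. Without Synph-293 replicate 2, the call was lost at an adjusted p of 0.0637 by edgeR, with a log2 fold change of -0.83. PSMA2 overlaps, on its own strand, a gene known by the clone name AC010132.3, which had 382 and 282 counts in Synph-293 cells and 419 and 407 in HEK293 cells. How the authors' counting divided reads between these genes was not tested.

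PSMG3 encodes a chaperone that helps to build the alpha ring (ENSG00000157778, chromosome 7, 1567332 to 1571005, minus strand). Its level was 28.9 and 29.0 CPM in Synph-293 cells, against 41.5 and 44.3 CPM in HEK293 cells, with no overlap. The log2 fold change was -0.57 ± 0.15 (SE), with an edgeR adjusted p of 0.0254. The call was lost without Synph-293 replicate 1 (adjusted p = 0.240) and without Synph-293 replicate 2 (adjusted p = 0.223), while the log2 fold change stayed between -0.62 and -0.53 in all 4 fits that left out a library. By limma on TPM values the adjusted p was 0.0741 with a pseudocount of 0.1. PSMG3-AS1, a long noncoding gene that overlaps it on the other strand, was at 4.35 and 3.87 CPM in Synph-293 cells, against 3.56 and 2.85 CPM in HEK293 cells.

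PSMD13 encodes a structural subunit of the 19S lid (ENSG00000185627, chromosome 11, 236966 to 252984, plus strand). It was at 115 and 95.4 CPM in Synph-293 cells, against 59.3 and 70.7 CPM in HEK293 cells. Both Synph-293 libraries stood above both HEK293 libraries. The log2 fold change was 0.69 ± 0.17 (SE), or 1.62-fold, with an edgeR adjusted p of 0.0173. Without Synph-293 replicate 1 the adjusted p was 0.223 by edgeR, with a log2 fold change of 0.57. By limma on TPM values it was 0.0671 with a pseudocount of 0.1.

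**Figure D2:**
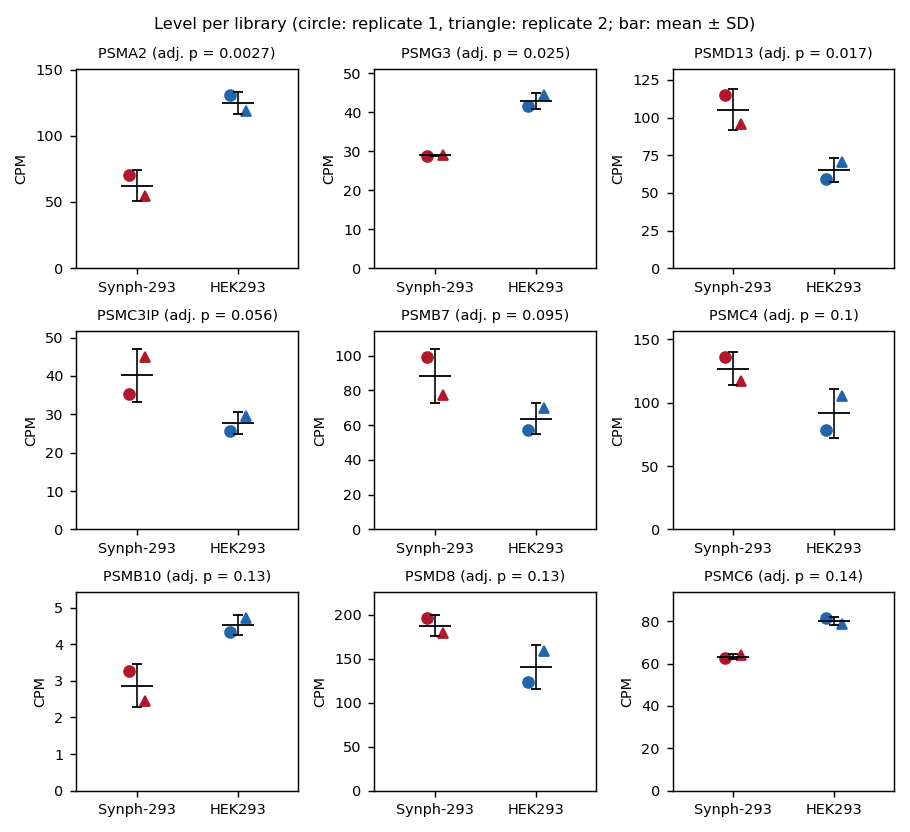
CPM per library of the 9 proteasome genes with an edgeR adjusted p under 0.15, Synph-293 on the left and HEK293 on the right of each panel, with bars for the mean ± SD (n = 2 each). PSMA2, PSMG3 and PSMD13 show no overlap between the groups, and the same holds for the other 6 genes, whose adjusted p lay above 0.05.

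Most genes around each of these 3 had log2 fold changes of the same sign as it. Among the 30 tested genes nearest to PSMD13 on chromosome 11, spanning 0.650 Mb, the log2 fold change was positive for all 30, its median was 0.96, and 23 were called higher by edgeR. Of these neighbours, 24 had a larger log2 fold change than PSMD13. The 2 nearest, SIRT3, a mitochondrial deacetylase, and RIC8A, a chaperone of G protein alpha subunits, had log2 fold changes of 0.64 ± 0.17 and 0.72 ± 0.16 (SE), with edgeR adjusted p of 0.0276 and 0.0120. Around PSMG3, the 30 nearest genes spanned 2.09 Mb with a median of -0.51. Of these, 28 were negative, 10 were called lower and 1 was called higher, and INTS1, a subunit of the Integrator complex, was at -0.76 ± 0.17. Around PSMA2 they spanned 2.92 Mb with a median of -0.35. Of these, 25 were negative, 3 were called lower and 1 was called higher, and 2 lay below PSMA2 itself.

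With the median of the 30 nearest genes taken off as an offset in the edgeR fit, PSMA2 was the only proteasome gene called. In the same fit 10.7% of all tested genes were called, 1209 higher and 540 lower. The log2 fold change of PSMA2 relative to its neighbours was -0.65, with an adjusted p of 0.0343. For PSMG3 the value was -0.06 with an adjusted p of 0.866. For PSMD13 it turned to -0.27 with an adjusted p of 0.387, below its neighbours. The median size of the log2 fold change over the 45 genes was 0.21, and 0.12 with the offset. Over all tested genes it was 0.30 without the offset, and the value with the offset was not determined. Own change and neighbours' median had the same sign for 34 of the 45 genes. The matching share over all tested genes was not determined. Across these genes, which are not independent replicates and share their 4 libraries, Pearson's r between the 2 was 0.71 and Spearman's rho 0.71. Over all 16421 tested genes the values were 0.26 and 0.45. Those genes include some with lower levels than any tested proteasome gene, and a comparison at matched levels was not made. Copy number was not measured here, and its part in these values was not tested.

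**Figure D3:**
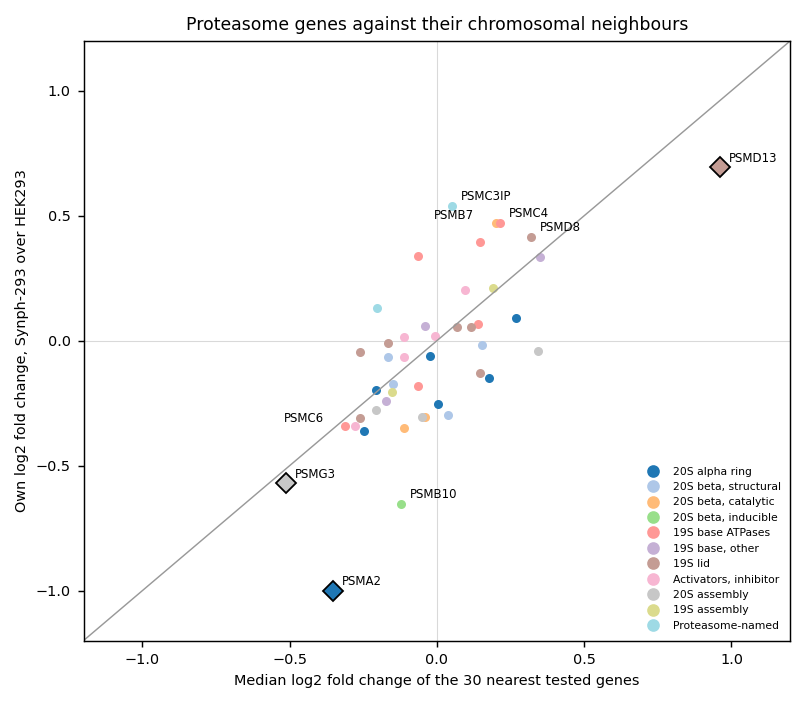
Own log2 fold change of each tested proteasome gene (vertical axis) against the median log2 fold change of its 30 nearest tested genes (horizontal axis), Synph-293 over HEK293, coloured by role. PSMD13 lies at the right with a neighbours' median of 0.96, PSMG3 lies at the left with -0.51, and PSMA2 lies below the rest at -1.001.

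Sequence around the start of transcription is shown from the RefSeq promoter table (GRCh38.p14) for PSMA2 and PSMD13, which were called in opposite directions. It is also shown for PSMB9 and PSMD5, which had few counts in both groups. Each stretch runs 5′ to 3′ on the gene's strand, from 250 bases before the start to 50 after it. PSMA2 is at chr7:42932125-42932424 on the minus strand, PSMD13 at chr11:236726-237025 on the plus strand, PSMB9 at chr6:32853942-32854241 on the plus strand and PSMD5 at chr9:120842873-120843172 on the minus strand. Capitals mark matches, on either strand, to CCAAT, to TGACNNNGC (the core of the antioxidant response element that NFE2L1 and its relatives bind), to TTCNNNGAA (the core of the gamma-activated site of interferon-responsive promoters) and to the core of the interferon-stimulated response element, a pair of GAAA set 2 bases apart. No matches overlap in these 4 stretches.
PSMA2: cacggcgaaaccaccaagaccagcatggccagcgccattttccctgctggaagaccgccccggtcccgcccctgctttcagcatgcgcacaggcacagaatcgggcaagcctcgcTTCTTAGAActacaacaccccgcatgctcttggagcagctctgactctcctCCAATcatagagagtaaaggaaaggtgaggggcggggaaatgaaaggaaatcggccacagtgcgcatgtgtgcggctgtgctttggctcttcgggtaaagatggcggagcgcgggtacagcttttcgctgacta
PSMD13: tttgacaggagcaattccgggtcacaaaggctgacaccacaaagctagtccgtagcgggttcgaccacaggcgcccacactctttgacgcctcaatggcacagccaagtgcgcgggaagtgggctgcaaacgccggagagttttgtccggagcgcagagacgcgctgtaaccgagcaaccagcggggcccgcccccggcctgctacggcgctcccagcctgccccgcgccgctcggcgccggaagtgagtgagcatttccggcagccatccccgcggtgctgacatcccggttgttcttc
PSMB9: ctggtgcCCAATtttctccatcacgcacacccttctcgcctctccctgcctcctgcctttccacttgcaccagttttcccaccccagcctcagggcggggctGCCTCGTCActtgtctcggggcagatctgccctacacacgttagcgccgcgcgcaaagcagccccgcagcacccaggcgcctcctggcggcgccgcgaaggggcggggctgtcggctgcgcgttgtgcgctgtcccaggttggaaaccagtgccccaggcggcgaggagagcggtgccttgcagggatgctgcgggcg
PSMD5: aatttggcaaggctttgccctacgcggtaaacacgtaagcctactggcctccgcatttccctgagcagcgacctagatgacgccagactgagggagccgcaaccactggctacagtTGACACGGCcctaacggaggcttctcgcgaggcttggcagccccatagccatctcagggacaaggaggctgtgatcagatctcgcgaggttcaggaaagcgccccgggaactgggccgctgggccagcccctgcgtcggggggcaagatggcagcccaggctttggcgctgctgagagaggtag

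In the PSMA2 stretch, TTCNNNGAA starts 135 bases and CCAAT 84 bases before the start of transcription. The PSMD13 stretch holds none of the 4 motifs. In PSMB9, CCAAT starts 243 bases before the start, and TGACNNNGC lies on the other strand 148 bases before it. The counted PSMB9 gene of the deposited annotation starts elsewhere, at 32844136. PSMD5 has TGACNNNGC 134 bases before its start. These 4 stretches hold 19, 30, 26 and 19 CpG in the order printed, against a median of 14 over all promoters in the table. Of the 50 genes, 44 matched the table, with 55 promoters between them. TGACNNNGC was in 27.3% of these, against 13.3% of all 35116 promoters, and CCAAT in 43.6%, against 34.6%. TTCNNNGAA was in 14.5%, against 7.66%. The core of the interferon-stimulated response element was in 12.7%, against 3.57%, and the genes that hold it are PSMA4, PSMB4, PSMB8, PSMB10, PSME1, PSME2 and PSMG4. A match of letters is a description, and binding was not measured.

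Levels are compared between genes on the TPM scale, which is per transcript length. The 50 genes summed to 6913 and 5728 TPM in Synph-293 cells, against 5837 and 7121 TPM in HEK293 cells. The groups overlapped, and the 2 libraries of each group were further apart than the group means of 6321 ± 838 and 6479 ± 908 TPM (SD, n = 2 each). With 2 against 2 libraries an exact two-sided permutation test cannot go below p = 0.333, so none is given. PSMB4, a beta-ring subunit, had the highest mean of any proteasome gene at 414 TPM, and PSMB10 the lowest among tested genes at 12.6 TPM. Across the 45 tested genes the log2 mean TPM of the groups had a Pearson's r of 0.95 and a Spearman's rho of 0.92, as a description of genes that share libraries.

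**Figure D4:**
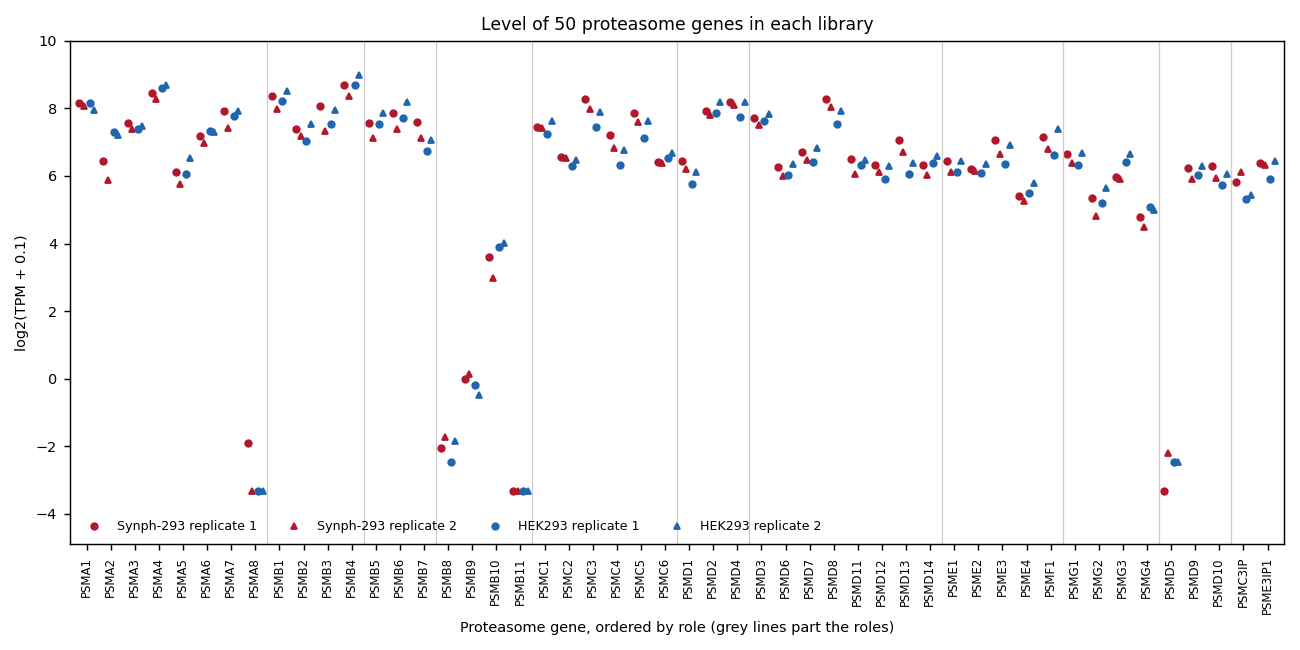
Level of each of the 50 proteasome genes in each library as log2(TPM + 0.1), ordered by role, with Synph-293 and HEK293 in separate colours. The constitutive subunits sit together near the top, and PSMA8, PSMB8, PSMB9, PSMB11 and PSMD5 lie far below them.

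In the 20S core, 15 of 19 genes were tested, 0 were called higher and 1 lower by edgeR, with 1 higher and 2 lower at an unadjusted p under 0.05. DESeq2 and limma also called 0 higher and 1 lower. The log2 fold change was negative for 13 of the 15 (86.7%, against 51.3% of all tested genes), with a median of -0.20. That median was -0.34 without Synph-293 replicate 1, -0.13 without Synph-293 replicate 2 and -0.09 without HEK293 replicate 2. The 20S genes summed to 3166 and 2494 TPM in Synph-293 cells, against 2981 and 3447 TPM in HEK293 cells, so the groups overlapped. Among the alpha subunits, 6 of 7 tested genes had negative values, and the highest log2 fold change was that of PSMA1, which was at 211 and 193 CPM in Synph-293 cells, against 186 and 193 CPM in HEK293 cells (0.09 ± 0.16 SE, edgeR adjusted p = 0.747). PSMA4 had the highest level of this ring, with a mean of 363 TPM, and PSMA5 the lowest, with 70.2 TPM. The alpha genes summed to 1364 and 1151 TPM in Synph-293 cells, against 1439 and 1476 TPM in HEK293 cells, with no overlap, and PSMA2 was 86.3 and 58.9 TPM of these in Synph-293 cells, against 158 and 149 TPM in HEK293 cells.

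The beta subunits without a cutting site, PSMB1, PSMB2, PSMB3 and PSMB4, had log2 fold changes between -0.30 and -0.02. PSMB4 was at 194 and 170 CPM in Synph-293 cells, against 208 and 241 CPM in HEK293 cells (-0.30 ± 0.17 SE, edgeR adjusted p = 0.253), with no overlap. PSMB3 was at 95.5 and 61.4 CPM in Synph-293 cells, against 69.2 and 89.8 CPM in HEK293 cells. Its replicates differed more than its groups (-0.02 ± 0.22 SE). PSMB2 had the lowest mean of these 4, at 157 TPM.

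The constitutive cutting subunits differed in the sign of the log2 fold change, and with all libraries 0 of these 3 were called by edgeR. PSMB5, with chymotrypsin-like activity, was at 104 and 81.9 CPM in Synph-293 cells, against 107 and 130 CPM in HEK293 cells (-0.35 ± 0.18 SE, edgeR adjusted p = 0.203), with no overlap. PSMB6, with caspase-like activity, was at 93.5 and 72.6 CPM in Synph-293 cells, against 86.7 and 119 CPM in HEK293 cells (-0.30 ± 0.19, edgeR adjusted p = 0.309), and its groups overlapped. PSMB7, with trypsin-like activity, was at 99.4 and 77.2 CPM in Synph-293 cells, against 57.3 and 70.0 CPM in HEK293 cells (0.47 ± 0.18, edgeR adjusted p = 0.0951). Its groups did not overlap, and its adjusted p by edgeR was 0.632 without Synph-293 replicate 1 and 0.00564 when HEK293 replicate 2 was left out.

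The inducible cutting subunits were low in both groups. PSMB8, which replaces PSMB5 under interferon, had 1 and 3 counts in Synph-293 cells, against 1 and 1 in HEK293 cells. PSMB9, which replaces PSMB6, had 8 and 8 counts in Synph-293 cells, against 5 and 4 in HEK293 cells. Neither passed the filter, and a count of 0 in a library allows a level of up to between 0.178 and 0.224 CPM, set at 3 counts and covering counting error only. In TPM, PSMB8 was 0.0738% and 0.145% of PSMB5 in Synph-293 cells, against 0.0429% and 0.0780% in HEK293 cells. PSMB9 was 0.382% and 0.607% of PSMB6 in Synph-293 cells, against 0.374% and 0.214% in HEK293 cells. PSMB10, which replaces PSMB7, was at 3.28 and 2.46 CPM in Synph-293 cells, against 4.33 and 4.72 CPM in HEK293 cells. Its groups did not overlap, and the difference missed the threshold (-0.65 ± 0.27 SE, edgeR adjusted p = 0.125). As a share of PSMB7 TPM it was 6.22% and 5.56% in Synph-293 cells, against 13.8% and 11.97% in HEK293 cells, though neither gene was called. PSMB10 overlaps AC040162.1 on its own strand, which had 23 and 36 counts in Synph-293 cells, against 38 and 43 in HEK293 cells. How reads were divided between these overlapping genes was not tested. The thymus subunit PSMB11 had 0 counts in all 4 libraries, and the testis alpha subunit PSMA8 had 2 and 0 counts in Synph-293 cells, against 0 and 0 in HEK293 cells.

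All 17 genes of the 19S particle were tested. By edgeR 1 was called higher, PSMD13, and 0 lower, with 3 higher and 1 lower at an unadjusted p under 0.05. DESeq2 gave 1 and 0, and limma 0 and 0. The log2 fold change was positive for 10 and negative for 7, with a median of 0.06. The sign of this median turned when either replicate 1 was left out, to -0.01 for Synph-293 and -0.10 for HEK293, and it was 0.11 without Synph-293 replicate 2 and 0.20 without HEK293 replicate 2. These genes summed to 2745 and 2379 TPM in Synph-293 cells, against 2042 and 2602 TPM in HEK293 cells, and the groups overlapped. Among the 6 base ATPases the median was 0.20, and leaving out HEK293 libraries gave 0.037 without replicate 1 and 0.38 without replicate 2. PSMC4, the reported partner of synphilin-1, was at 137 and 118 CPM in Synph-293 cells, against 78.2 and 105 CPM in HEK293 cells. The log2 fold change was 0.47 ± 0.18 (SE), and the edgeR adjusted p of 0.101 missed the threshold. It was 0.515 when Synph-293 replicate 1 was left out and 0.00197 when HEK293 replicate 2 was. PSMC6 was the lowest of the ATPases by fold change, at 62.6 and 64.0 CPM in Synph-293 cells, against 81.5 and 78.9 CPM in HEK293 cells (-0.34 ± 0.15, edgeR adjusted p = 0.141), with no overlap. PSMC3 had the highest mean of the ATPases, at 243 TPM, and PSMC2 the lowest, at 88.2 TPM.

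The base subunits that are not ATPases had log2 fold changes between -0.24 and 0.34. PSMD1, a scaffold of the base, was at 140 and 145 CPM in Synph-293 cells, against 102 and 124 CPM in HEK293 cells (0.34 ± 0.16 SE, edgeR adjusted p = 0.187), with no overlap. PSMD2, the other scaffold, was at 315 and 293.2 CPM in Synph-293 cells, against 316 and 402 CPM in HEK293 cells (-0.24 ± 0.18, edgeR adjusted p = 0.394), also with no overlap. The ubiquitin receptor PSMD4 had the highest mean of these 3, at 267 TPM, and PSMD1 the lowest, at 71.0 TPM.

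Among the 8 lid genes, apart from PSMD13, the log2 fold changes ran from -0.31 to 0.42. PSMD8 was at 196 and 179 CPM in Synph-293 cells, against 123 and 158 CPM in HEK293 cells (0.42 ± 0.18 SE, edgeR adjusted p = 0.129), with no overlap. PSMD14, the enzyme that cuts ubiquitin off the substrate, was at 72.8 and 64.7 CPM in Synph-293 cells, against 81.1 and 89.5 CPM in HEK293 cells (-0.31 ± 0.16, edgeR adjusted p = 0.197), also with no overlap. PSMD8 had the highest mean of the lid, at 251 TPM, and PSMD6 the lowest, at 72.1 TPM. The other 5 lid genes overlapped between the groups.

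**Figure D5:**
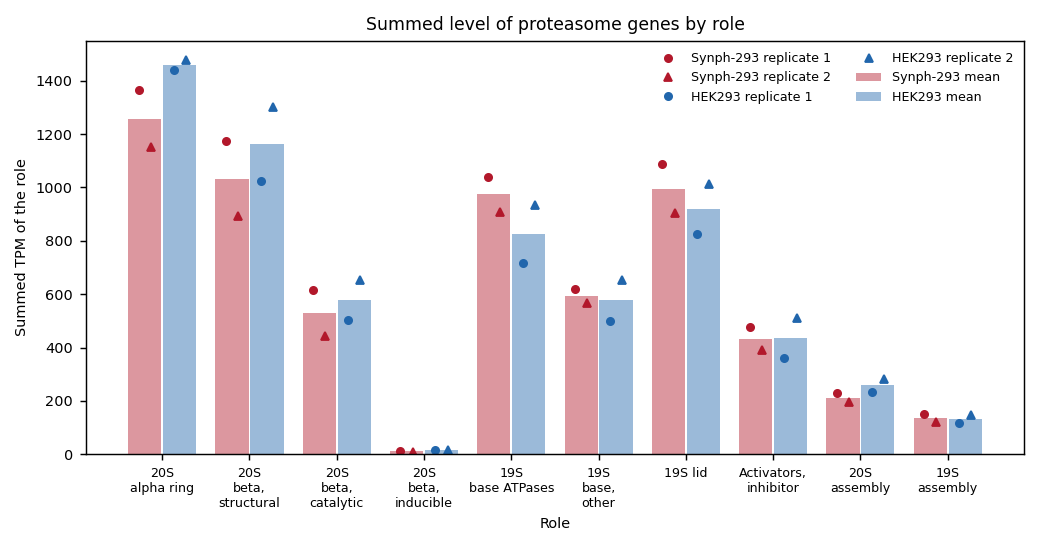
Summed TPM of the proteasome genes of each role, with bars for the mean of each group, Synph-293 left of HEK293, and points for the libraries (n = 2 each). The libraries of the 2 groups overlap for the 20S beta subunits without and with constitutive cutting sites, the base, the lid, the activators and the 19S chaperones. The sums do not overlap for the alpha subunits, the inducible subunits and the 20S chaperones, and were lower in both Synph-293 libraries. For the 20S chaperones the nearest libraries were at 231 TPM in Synph-293 cells and 234 TPM in HEK293 cells. Most of the inducible sum was PSMB10. PSMB9 went the other way, at 0.89 and 1.01 TPM in Synph-293 cells, against 0.78 and 0.62 TPM in HEK293 cells, on at most 8 counts. How often sums of other gene sets do not overlap was not determined.

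The activators and the inhibitor of the core numbered 5, and 0 were called by edgeR, DESeq2 or limma. At an unadjusted p under 0.05 edgeR gave 0 and DESeq2 gave 1, lower. Their median log2 fold change was 0.02, and it turned to -0.06 without Synph-293 replicate 1 and to -0.13 without HEK293 replicate 1. Without the other library of each group it was 0.10 for Synph-293 and 0.16 for HEK293. PSME1 and PSME2 encode the cytoplasmic activator ring that interferon raises. PSME1 was at 43.3 and 37.7 CPM in Synph-293 cells, against 36.1 and 44.2 CPM in HEK293 cells, and PSME2 at 29.98 and 30.01 CPM in Synph-293 cells, against 30.9 and 32.0 CPM in HEK293 cells. PSME3, the nuclear activator, had the highest value of this group (0.20 ± 0.20 SE, edgeR adjusted p = 0.516), at 226 and 204 CPM in Synph-293 cells, against 153 and 221 CPM in HEK293 cells. PSME4, a large nuclear activator, had the lowest (-0.34 ± 0.16, edgeR adjusted p = 0.173), at 139 and 135 CPM in Synph-293 cells, against 160 and 188 CPM in HEK293 cells, with no overlap. PSMF1, the inhibitor, had the highest mean level of these genes at 129 TPM and PSME4 the lowest at 45.2 TPM.

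Of the 7 assembly genes 6 were tested, with 0 called higher and 1, PSMG3, called lower by edgeR, and the counts at an unadjusted p under 0.05 were the same. DESeq2 gave 0 and 1, and limma 0 and 0. The median log2 fold change was -0.24, and it was -0.09 without Synph-293 replicate 2 and -0.08 without HEK293 replicate 2. The 20S chaperones PSMG1, PSMG2, PSMG3 and PSMG4 were all negative, between -0.57 and -0.04. These 4 summed to 231 and 195 TPM in Synph-293 cells, against 234 and 284 TPM in HEK293 cells. PSMG4, which pairs with PSMG3, was at 18.1 and 17.7 CPM in Synph-293 cells, against 23.2 and 21.0 CPM in HEK293 cells (-0.30 ± 0.17 SE, edgeR adjusted p = 0.234), with no overlap. PSMG1 was at 47.2 and 40.4 CPM in Synph-293 cells, against 39.9 and 50.2 CPM in HEK293 cells. Among the 19S chaperones, PSMD9 had a log2 fold change of -0.21 ± 0.16 and PSMD10 0.21 ± 0.17, and both overlapped between the groups. PSMG1 had the highest mean of the assembly genes, at 91.1 TPM, and PSMG4 the lowest of those tested, at 28.9 TPM.

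PSMD5, a chaperone of the 19S base, was nearly undetected in both groups, with 0 and 3 counts in Synph-293 cells, against 3 and 1 in HEK293 cells. The 4 neighbouring genes on chromosome 9 that were examined were all above PSMD5, which reached at most 0.184 CPM, though a pair of them was low. PHF19, a Polycomb-associated protein, was at 21.5 and 18.05 CPM in Synph-293 cells, against 24.0 and 27.9 CPM in HEK293 cells. FBXW2, an F-box protein, was at 49.7 and 45.3 CPM in Synph-293 cells, against 39.2 and 47.5 CPM in HEK293 cells. B3GNT10 was at 2.74 and 2.82 CPM in Synph-293 cells, against 3.56 and 2.996 CPM in HEK293 cells. TRAF1, a signalling adaptor, was at 1.91 and 1.66 CPM in Synph-293 cells, against 1.36 and 0.749 CPM in HEK293 cells. How the annotation or the counting bears on PSMD5 was not tested.

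A further pair of genes fell under the rule by name only. PSMC3IP encodes a protein of meiotic recombination that binds the PSMC3 product. It was at 35.2 and 45.1 CPM in Synph-293 cells, against 25.6 and 29.7 CPM in HEK293 cells, with no overlap, and missed the threshold (0.54 ± 0.17 SE, edgeR adjusted p = 0.0560). Without HEK293 replicate 2 it passed, at an edgeR adjusted p of 0.00413, as it did with no filter on low counts, at 0.0347. PSME3IP1, a partner of the PSME3 product, had a log2 fold change of 0.13 ± 0.17 and an edgeR adjusted p of 0.632.

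The other proteasome subunits and partners, whose symbols do not follow the rule, were read from a list of 12 genes. By edgeR 0 were called, also at an unadjusted p under 0.05, and DESeq2 and limma gave 0 as well. POMP, the maturation chaperone of the core, was at 58.5 and 41.7 CPM in Synph-293 cells, against 56.2 and 60.4 CPM in HEK293 cells (-0.22 ± 0.18 SE). SEM1, the smallest lid subunit, had a log2 fold change of 0.05 ± 0.16 and ADRM1, a ubiquitin receptor of the base, 0.22 ± 0.17. ECPAS, a scaffold that binds the proteasome, had the largest change in size, -0.29 ± 0.16.

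Of 8 regulators of proteasome genes, 0 were called higher and 1 lower by edgeR. At an unadjusted p under 0.05 there were 0 and 2. By DESeq2 0 were higher and 1 lower, and by limma 0 and 0. NFE2L1, which drives proteasome genes when the proteasome is inhibited, was at 288 and 391 CPM in Synph-293 cells, against 303 and 234 CPM in HEK293 cells (0.34 ± 0.20 SE, edgeR adjusted p = 0.284). NFE2L2, its relative in the oxidative stress response, had a log2 fold change of -0.30 ± 0.17 (edgeR adjusted p = 0.245). NFE2L3, a further relative, was the gene called lower, at 19.1 and 27.2 CPM in Synph-293 cells, against 53.5 and 31.2 CPM in HEK293 cells (-0.88 ± 0.25, edgeR adjusted p = 0.0337). Leaving out Synph-293 replicate 1 (adjusted p = 0.162) or HEK293 replicate 1 (adjusted p = 0.0757) ended that call, and relative to its 30 nearest genes the log2 fold change was -0.38 with an adjusted p of 0.399.

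Ubiquitin genes and the proteins that carry substrates to the proteasome formed a list of 16, of which 15 were tested. By edgeR 2 were called higher, against 10.0% of all tested genes, and 0 lower, with 2 and 1 at an unadjusted p under 0.05, by DESeq2 2 and 0, and by limma 1 and 0. UBQLN2, a shuttle protein, was at 88.5 and 79.8 CPM in Synph-293 cells, against 50.2 and 55.1 CPM in HEK293 cells (0.68 ± 0.15 SE, edgeR adjusted p = 0.0128). UFD1, a cofactor of the VCP unfoldase, was at 72.4 and 85.6 CPM in Synph-293 cells, against 48.2 and 51.9 CPM in HEK293 cells (0.66 ± 0.16, edgeR adjusted p = 0.0165). Relative to their 30 nearest genes, the log2 fold changes were 0.27 (adjusted p = 0.331) for UBQLN2 and 0.26 (adjusted p = 0.373) for UFD1. Without Synph-293 replicate 2 neither was called, and without Synph-293 replicate 1 UBQLN2 was not. VCP itself had a log2 fold change of -0.39 ± 0.17 (edgeR adjusted p = 0.147).

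Genes of antigen processing and interferon response, which share regulation with the inducible subunits, had log2 fold changes between -0.38 and 0.86 for the 15 that are reported here. Of these, 4 were called higher by edgeR, against 10.0% of all tested genes, 3 by DESeq2 and 1 by limma with a pseudocount of 0.1, and leaving out Synph-293 replicate 1 gave 2 by edgeR, while leaving out replicate 2 of that group gave 0. TAP1, the peptide transporter gene, was at 22.5 and 20.9 CPM in Synph-293 cells, against 23.3 and 14.8 CPM in HEK293 cells (0.18 ± 0.21 SE, edgeR adjusted p = 0.598). Its RefSeq starts lie 488 and 1431 bases from the RefSeq start of PSMB9, on the other strand. Its level was measurable in all 4 libraries where PSMB9 had at most 8 counts. In the deposited annotation PSMB9 starts elsewhere than its RefSeq start, and its span holds the whole of TAP1. How reads of this pair were assigned was not tested. The genes called higher were ERAP2, a peptide-trimming enzyme (0.86 ± 0.22, edgeR adjusted p = 0.0233), NLRC5, an activator of class I genes (0.83 ± 0.26, edgeR adjusted p = 0.0493), IFNGR2, a subunit of the interferon gamma receptor (0.68 ± 0.16, edgeR adjusted p = 0.0150) and TAPBP, the chaperone that ties class I molecules to the transporter (0.61 ± 0.16, edgeR adjusted p = 0.0272). Relative to their 30 nearest genes, TAPBP, NLRC5 and IFNGR2 stayed called, at edgeR adjusted p of 0.0197, 0.0254 and 0.0393. The NLRC5 call was lost by DESeq2 (adjusted p = 0.183), by limma with a pseudocount of 0.1 (0.0634) and when any of Synph-293 replicate 1 (0.186), Synph-293 replicate 2 (0.112) or HEK293 replicate 2 (0.112) was left out. The ERAP2 call was lost by limma (0.0750), without Synph-293 replicate 2 (0.147) and relative to its 30 nearest genes (0.140). TAPBP was not called by limma (0.142), nor by edgeR without Synph-293 replicate 1 (0.0939) or replicate 2 (0.223), and IFNGR2 not without Synph-293 replicate 2 (0.170).

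Lists of markers of other cell types were read as well. The 16 blood and immune markers summed to 17.3 and 20.01 CPM in Synph-293 cells, against 16.3 and 14.9 CPM in HEK293 cells. The highest of them was CD68, a lysosomal protein, which was called higher by edgeR as 1 of 6 tested, though not by DESeq2 or without Synph-293 replicate 2, while PTPRC, the pan-leukocyte marker, had at most 3 counts in a library. The 8 fibroblast markers summed to 102 and 101 CPM in Synph-293 cells, against 48.9 and 46.0 CPM in HEK293 cells. Of 5 tested, COL1A1 and COL3A1, both collagen genes, were called higher by edgeR, with log2 fold changes of 0.66 ± 0.15 and 2.43 ± 0.22 (SE). COL1A1 was at 56.7 and 51.99 CPM in Synph-293 cells, against 33.2 and 35.8 CPM in HEK293 cells, and its call was lost without either Synph-293 library. COL3A1 was at 37.4 and 37.7 CPM in Synph-293 cells, against 8.60 and 5.17 CPM in HEK293 cells, while DCN, COL1A2 and FAP had at most 6 counts in a library. The 6 endothelial markers summed to 8.35 and 7.55 CPM in Synph-293 cells, against 4.15 and 4.27 CPM in HEK293 cells, with ERG, a transcription factor, called higher of 3 tested, at 1.37 and 1.47 CPM in Synph-293 cells, against 0.119 and 0.0749 CPM in HEK293 cells, and PECAM1 and CDH5 at no more than 8 counts. Of the HEK293 markers, PAX2 and KRT8 were called higher of 5 tested, with log2 fold changes of 2.87 ± 0.33 and 1.02 ± 0.20 (SE). The part of these markers in the proteasome values was not tested.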

How the data were processed

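Poly(A) RNA, per the labels, of 2 Synph-293 and 2 HEK293 samples was sequenced as read pairs from stranded libraries. The table deposited by the authors gives an expected count, rounded to whole numbers, an RPKM and a TPM value per gene and sample. The deposited counts were treated as estimated because between 43 and 63 genes per sample have a count of 0 and a TPM above 0. RPKM and TPM were normalised by the authors for length and library size. RPKM served only to recompute the summed levels. The submitters' processing notes name the build GRCh38.p13 and, with no role or order, the aligner STAR 2.7.1a, the trimmer cutadapt 2.8, the quantifiers RSEM 1.3.1 and Cufflinks 2.2.1, and the counters HTSeq 0.11.2 and featureCounts 2.0.0. Whether counting used strand is not stated in the labels or notes, and 31 of the 50 proteasome genes overlap another gene, 27 of them on the opposite strand, so reads of such pairs may have been counted together. The 32 pseudogenes of the same symbol stems had 19 and 12 counts in Synph-293 cells, against 11 and 14 in HEK293 cells, and reads split with them are uncertain.

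Counts were fitted in R 4.3.3 with edgeR 4.0.16 (TMM, filterByExpr with a minimum count of 10 and total of 15, quasi-likelihood test, group as the only term) over all 4 samples, and p was adjusted by Benjamini-Hochberg over 16421 genes. The SE is the size of the log2 fold change divided by the square root of F. The biological coefficient of variation was 13%. Replicate counts differed beyond sampling noise, their chi-square over its degrees of freedom being 18.8 in Synph-293 cells and 25.8 in HEK293 cells. Neighbours are the 30 nearest tested genes on the chromosome. Alternatives were RLE scaling, DESeq2 1.42.0, limma 3.58.1 on log2(TPM + 0.1) and log2(TPM + 1), no filter, a filter of 1 CPM, each library left out, a replicate block, the neighbours' median as an offset, and scaling without SNCAIP and mitochondrial genes. The proteasome genes and all gene lists were chosen with earlier results of these data known. Named with values are the called genes, those with an adjusted p up to 0.15, the cutting subunits, PSMC4 and the extremes of level and change within a role. Of the other lists, the called genes, some of the largest changes, and POMP, SEM1, ADRM1, NFE2L1, NFE2L2 and TAP1 are named. From the antigen processing list 1 gene is not reported here, and the list's counts leave it out. The neighbours of called genes and PSMD5 and its neighbours were singled out after their values were seen.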

Additional observations from a re-analysis of the deposited data

How the results depend on the processing

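The counts of called proteasome genes, 1 higher and 2 lower, depended on the processing. Without a filter 2 were higher. By limma 0 were higher and 1 lower with either pseudocount, with the neighbours' offset 0 and 1, and over the fits without a library 0 to 8 higher and 0 to 5 lower. Of the other proteasome partners 0 to 1 were lower over the fits without a library. Of the regulators 0 to 1 were higher and 0 to 1 lower over those fits, and 0 lower by limma or with the offset. Of the ubiquitin genes 1 was higher by limma, 0 with the offset and 0 to 3 without a library. Of the antigen processing genes 1 was higher by limma with a pseudocount of 0.1, 2 with 1, and 0 to 6 without a library, while 0 to 2 were lower without a library. Of the HEK293 markers 4 were higher without a filter and 2 to 4 without a library. Of the blood markers 0 were higher by DESeq2 and 0 to 1 without a library, and 1 was lower without a filter and 0 to 1 without a library. Of the fibroblast markers 1 was higher by limma or with the offset and 1 to 3 without a library, and of the endothelial markers 2 were higher without a filter.

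Over all 16421 genes, 1648 higher and 1081 lower became 1149 and 862 by DESeq2, 1086 and 474 by limma with a pseudocount of 0.1, and 1209 and 540 with the offset. Without a library, 1049 to 2183 were higher and 457 to 2042 lower.

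The sample numbers are shared by the groups, and nothing in the labels pairs them. With a replicate block, 1 proteasome gene was called lower, PSMG3 having an edgeR adjusted p of 0.0979, with 1 ubiquitin gene, 2 antigen processing genes and 0 blood markers called higher, and over all genes 1380 were higher and 719 lower. The deviations of same-numbered samples correlated at -0.277, and a block with the numbers crossed, chosen after seeing the data, called 8 proteasome genes higher and 10 lower, 1 partner lower, 1 regulator higher and 3 lower, 5 ubiquitin genes higher and 1 lower, 3 antigen processing genes lower, 4 HEK293 markers higher and 1 blood marker lower, with 3251 genes higher and 3016 lower in all.

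The median log2 fold change of the assembly genes was -0.064 with the offset and -0.30 to -0.0819 without a library, and that of the 20S chaperones -0.16 and -0.43 to -0.16. For the base ATPases it ran from 0.037 to 0.38 without a library. The log2 ratio of summed TPM ran, without a library, from -0.34 to -0.10 for the alpha ring, -0.86 to -0.30 for the inducible subunits, -0.14 to 0.24 for the base without ATPases and 0.15 to 0.53 for PSMC3IP with PSME3IP1. PSMD13 reversed to -0.27 with the offset. The cause of these shifts was not tested. RLE scaling moved the median log2 fold change of all genes by 0.000533. With 2 libraries a group, PSMB8, PSMB9, PSMD5, PSMA8 and PSMB11 were too shallow to compare.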

Other observations

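Long noncoding genes that carry a proteasome symbol stem were outside the rule. PSMA3-AS1 was at 43.5 and 41.0 CPM in Synph-293 cells, against 36.1 and 28.2 CPM in HEK293 cells, with no overlap, and missed the threshold (log2 fold change 0.39 ± 0.17 SE, edgeR adjusted p = 0.133). Its partner PSMA3, an alpha subunit, was at 85.1 and 77.8 CPM in Synph-293 cells, against 85.3 and 84.5 CPM in HEK293 cells. PSMD6-AS2 had 7 and 21 counts in Synph-293 cells, against 28 and 9 in HEK293 cells, and its groups overlapped. PSMB8-AS1 had at most 1 count in a library, as had PSMD6-AS1.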
